A study of Saccharomyces cerevisiae with 6 samples.

Results

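The 38 genes described here carry sulfur from sulfate to cysteine, methionine and S-adenosylmethionine in the budding yeast Saccharomyces cerevisiae, or regulate that route. They were taken from a list of standard gene names and matched through the array's systematic names, and each of the 38 has a probe among the 6256 on the array. The series compared the mutant strain BH13, which resists coniferyl aldehyde better, with the reference strain, REF. Coniferyl aldehyde is an aromatic aldehyde set free when lignin is broken down, and it slows yeast growth. Both strains were grown untreated in yeast minimal medium to log phase, and total RNA of 3 samples of each strain was labelled with Cy3 and read on one-colour Agilent arrays. BH13 is 1 selected mutant strain, and its mutations and the background of either strain are not stated in the labels.

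Yeast in minimal medium makes its sulfur amino acids from sulfate. Sulfate is taken up by permeases, activated with ATP, and reduced first to sulfite and then to sulfide, which is joined to a carbon chain derived from aspartate to form homocysteine. Homocysteine is methylated to methionine or passed to cysteine through cystathionine, and methionine is activated to S-adenosylmethionine, the main methyl donor of the cell. The genes are switched on mainly by the activator Met4, which is brought to DNA by Cbf1, Met31 and Met32 with the help of Met28, and which the ubiquitin ligase containing Met30 restrains when sulfur compounds are plentiful.

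Between 91.4% and 93.8% of gene spots were well above background on each array, and none was saturated. Each array was scaled by its own 75th percentile, and values below are log2 signal relative to that percentile, so that 0 stands for a probe as bright as the 75th percentile of its array. All 38 probes were well above background on all 6 arrays, so none rests on a bound or passed the filter on dim probes through 1 strain alone. The SD over the 3 arrays of a strain had a median of 0.08 in BH13 and 0.13 in REF across the 38 genes. Correlations of log2 signal over the 5890 genes tested, which are not independent replicates, were 0.994 to 0.998 within a strain and 0.854 to 0.877 between strains. The strains were hybridised on separate slides, 1 for BH13 and 2 for REF, which were scanned on different days, so that strain, slide and scan cannot be told apart. The net signal of negative control spots was 58.2 to 63.5 for BH13 and 27.4 to 31.9 for REF. Normexp background correction, which used the local background of each spot and not the negative control spots, kept all 25 calls given below. It moved sizes both ways, as for MMP1 from -0.58 to -0.42 and SAM1 from -1.70 to -1.78. The part of the negative control offset in the differences was not tested. A lower share of cells expressing a gene and less RNA per cell cannot be told apart in such bulk samples.

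Sulfur genes did not move as a block between the strains. By limma with Benjamini-Hochberg adjustment over all 5890 genes, 9 of the 38 were higher in BH13, 16 were lower and 13 were not called. These 25 calls are 65.8% of the genes, beside 81.3% called among all genes tested. Among all genes, 38% were called higher and 43.3% lower, beside 23.7% and 42.1% of the sulfur genes. At least 2-fold, 4 genes rose and 5 fell, together 23.7% of the 38. The background for such calls was 17.9% higher and 17.5% lower, together 35.5% of all genes. Some genes sat near the 2-fold threshold, a log2 difference of 1 in size, so these counts depend on the processing. Over 16 alternatives CYS4, counted here, was at -1.09 to -0.87, and MET22, not counted here, at -1.11 to -0.87. The values of the strains did not overlap for 27 of the 38 genes, or 71.1%, beside 83.7% of all genes tested. The median difference was -0.12 for the 38 genes and -0.07 for all genes, and the median size of a difference, whatever its sign, was 0.54 and 0.69. In this fit the extremes were the sulfate permease gene SUL1 and the sulfonate dioxygenase gene JLP1, while 5 of the 8 sulfate reduction genes were not called.

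**Figure D1:**
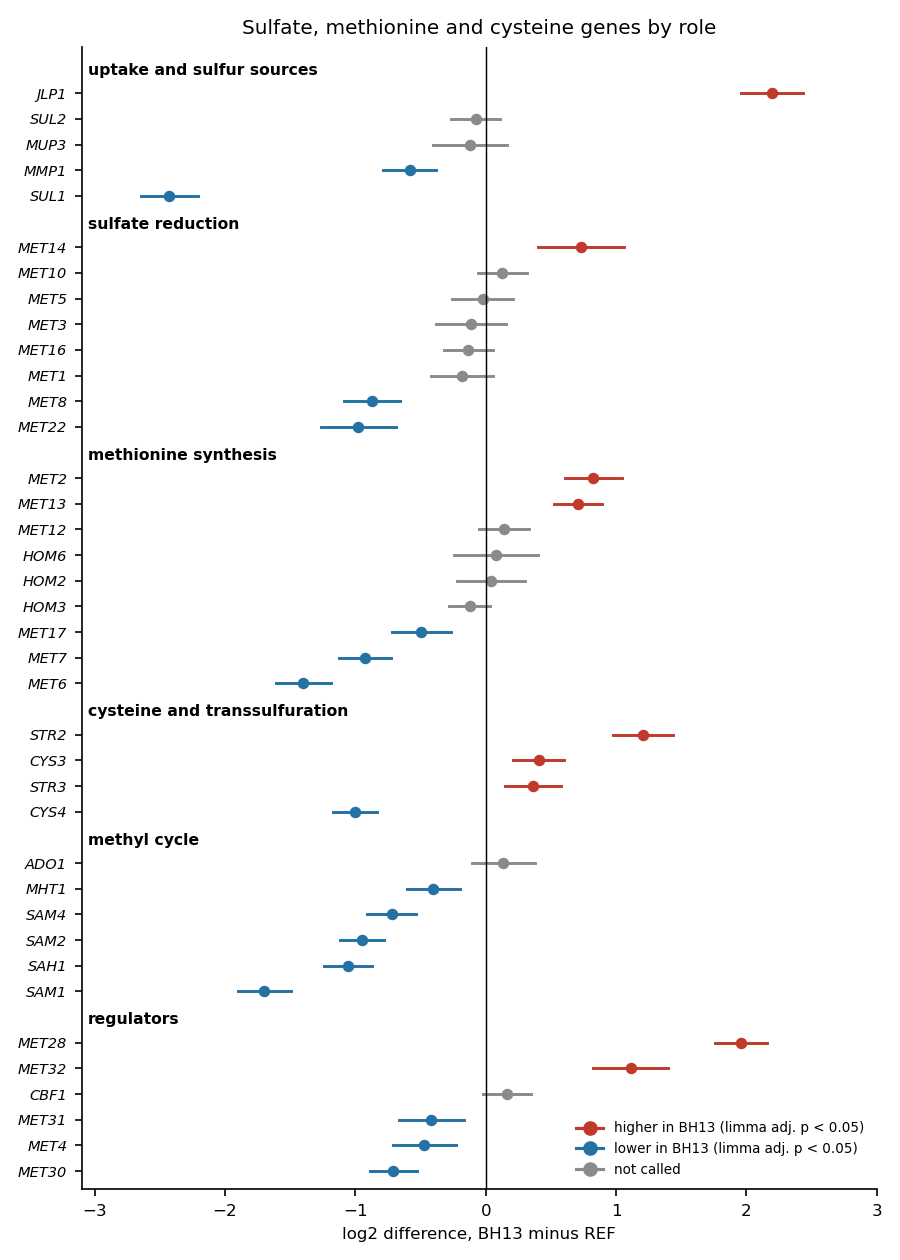
Log2 difference, BH13 minus REF, for each of the 38 genes, grouped by role. Points are the limma estimates from 3 arrays per strain, bars are 95% confidence intervals, and colours show the call, with SUL1 at -2.43 and JLP1 at 2.20 as the extremes.

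**Figure D2:**
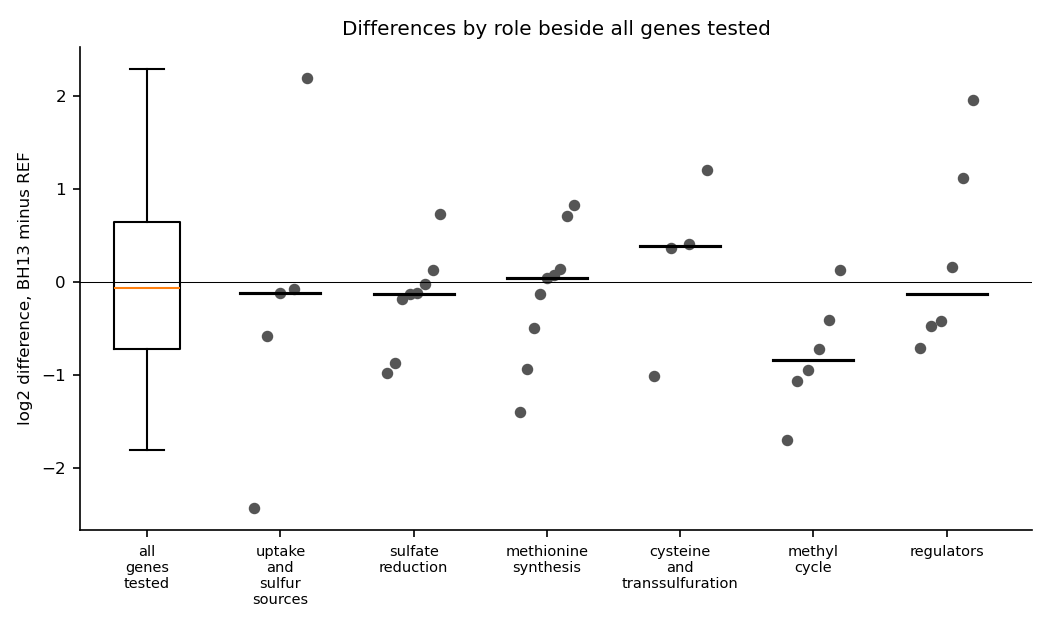
Log2 differences, BH13 minus REF, by role (1 point per gene, line at the median) beside a box of all 5890 genes tested. The box spans -0.72 to 0.65 and its whiskers the 5th to 95th percentile, -1.80 to 2.29, and the methyl cycle genes, with a median of -0.83, lie mostly below the box.

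Genes for uptake and sulfur sources held both the largest fall and the largest rise of the 38. The high-affinity sulfate permease gene SUL1 had log2 signals of -2.32, -2.56 and -2.26 on the BH13 arrays and 0.00, 0.09 and 0.06 on the REF arrays. Every BH13 value was more than 2 log2 units under every REF value, a difference that corresponds to 5.38-fold lower signal (limma adjusted p = 1.23e-07). SUL2, the gene of the other high-affinity sulfate permease, had signals of 0.10, -0.08 and -0.03 in BH13 and -0.01, 0.16 and 0.08 in REF. The SUL2 groups overlapped, and the difference was -0.08 with a 95% interval of -0.27 to 0.11. JLP1, whose dioxygenase releases sulfite from sulfonates so that these can serve as a sulfur source, stood at -2.53, -2.47 and -2.36 in BH13 and at -4.49, -4.84 and -4.61 in REF. It was 4.58-fold higher in BH13 (limma adjusted p = 3.24e-07), and its groups were far apart. Normexp background correction left a log2 difference of 1.80 for JLP1, below the 1.92 of the regulator gene MET28. MMP1, which encodes the S-methylmethionine permease, fell by 0.58 ± 0.09 (SE, n = 3 per strain). MUP3, a low-affinity methionine permease gene, was not called, at -0.12 with an interval of -0.41 to 0.16.

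The enzymes that activate and reduce sulfate had the lowest share of calls among the 6 roles, 37.5% beside 81.3% of all genes tested. Of these 8 genes 1 was higher, 2 were lower and 5 were not called. MET3, which encodes ATP sulfurylase at the entry of the chain, had signals of 1.90, 1.58 and 1.95 in BH13 and 2.04, 1.80 and 1.93 in REF. Those ranges overlapped, and the difference was -0.11 with an interval of -0.38 to 0.15. MET16, for the reductase that forms sulfite, was at -0.13 (interval -0.32 to 0.06), and the sulfite reductase subunit genes MET5 and MET10 were at -0.02 (-0.26 to 0.21) and 0.13 (-0.06 to 0.31). The intervals of these 4 genes leave room for differences of up to 0.38 in size on the log2 scale, and do not show that the strains were alike. MET1, for a methyltransferase of siroheme synthesis, was at -0.18 and not called (limma adjusted p = 0.134).

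MET14, which encodes the kinase that acts just after Met3, was the exception that rose. Its signals were 3.66, 3.14 and 3.59 in BH13 and 2.80, 2.57 and 2.83 in REF, a difference of 0.73 ± 0.14 (SE), or 1.66-fold. The BH13 array of replicate 2 was the lowest of its strain but still above all REF arrays. MET22, for the phosphatase that removes the adenosine bisphosphate left over by sulfate reduction, had -1.20, -1.30 and -1.10 in BH13 and 0.00, -0.48 and -0.18 in REF. It fell by 0.98 ± 0.13, which is 1.97-fold. MET8, the enzyme of the last steps of siroheme synthesis, the cofactor of sulfite reductase, had -0.94, -0.87 and -0.83 in BH13 and 0.10, 0.06 and -0.18 in REF. It fell by 0.87 ± 0.09, so the siroheme genes MET1 and MET8 had the same sign, with the second called.

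In methionine synthesis, 2 of 9 genes rose and 3 fell, and those that fell include the last step. These are 22.2% higher and 33.3% lower, beside 38% and 43.3% of all genes tested. MET6, the methionine synthase that methylates homocysteine, had signals of 2.49, 2.47 and 2.55 in BH13 and 4.06, 3.77 and 3.88 in REF. The BH13 values lay in a narrow band well under the REF values, and MET6 was 2.64-fold lower (limma adjusted p = 1.69e-06). MET7, for the synthetase that adds the glutamate tail of the folates used by Met6, had -1.26, -1.34 and -1.07 in BH13 and -0.29, -0.30 and -0.30 in REF, and fell by 0.93 ± 0.09. MET17, which encodes the enzyme that joins sulfide to O-acetylhomoserine, had 3.63, 3.65 and 3.78 in BH13 and 4.32, 4.0 and 4.23 in REF. That gap is smaller, 0.49 ± 0.10 lower in BH13, but without overlap between the strains.

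MET2, for the acetyltransferase that makes O-acetylhomoserine, moved the other way from MET17. Its signals were 0.05, 0.05 and -0.01 in BH13 and -0.74, -0.68 and -0.98 in REF, a rise of 0.83 ± 0.09 (limma adjusted p = 5.10e-05). MET13, which encodes the main methylenetetrahydrofolate reductase, the source of the methyl group for Met6, rose by 0.71 ± 0.08. The gene of the second such reductase, MET12, was not called, at 0.14 with an interval of -0.05 to 0.33. None of the genes that lead from aspartate to homoserine was called. The aspartate kinase gene HOM3 was at -0.12 (interval -0.28 to 0.03), the aspartate semialdehyde dehydrogenase gene HOM2 at 0.04 (-0.22 to 0.30) and the homoserine dehydrogenase gene HOM6 at 0.08 (-0.24 to 0.40). HOM3 varied so little within strains that its 3 BH13 values, 2.04 to 2.10, lay just under its REF values, 2.17 to 2.21.

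Of the 4 transsulfuration genes 3 were higher and 1 lower, while 81.3% of all genes tested were called in one direction or the other, so a full set of calls among so few genes is near that share. This route runs from cysteine to homocysteine through Str2 and Str3 and from homocysteine to cysteine through Cys4 and Cys3. STR2, which encodes cystathionine gamma-synthase, had signals of -0.03, -0.09 and 0.00 in BH13 and -1.13, -1.45 and -1.17 in REF. It rose 2.31-fold (limma adjusted p = 6.99e-06), with the groups more than 1 log2 unit apart. CYS4, for the cystathionine beta-synthase that starts the route to cysteine, had 1.75, 1.86 and 1.78 in BH13 and 2.76, 2.87 and 2.78 in REF, and was 2.01-fold lower. STR3, cystathionine beta-lyase, rose by 0.36 ± 0.09 and CYS3, cystathionine gamma-lyase, by 0.41 ± 0.08. The BH13 values of CYS3, 3.64, 3.78 and 3.77, all lay above the REF values of 3.24, 3.44 and 3.30, although Cys3 acts directly after Cys4.

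Methyl cycle genes were mostly lower, with 5 of 6 called lower, none higher and a median of -0.83. The median of all genes tested was -0.07, and 43.3% of them were called lower. SAM1 and SAM2 encode the synthetases that make S-adenosylmethionine from methionine. SAM1 had signals of 2.06, 2.02 and 2.16 in BH13 and 3.91, 3.77 and 3.66 in REF, and was 3.24-fold lower (limma adjusted p = 5.34e-07). SAM2 had 2.91, 2.91 and 3.03 in BH13 and 3.91, 3.87 and 3.91 in REF, and was 1.93-fold lower. These genes are much alike in sequence and a probe of one may also read the other, which was not tested. SAH1, which encodes the hydrolase that clears S-adenosylhomocysteine, had 3.01, 3.09 and 3.15 in BH13 and 4.12, 4.24 and 4.07 in REF. It fell by 1.06 ± 0.08, with no overlap between strains.

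The methyltransferase genes SAM4 and MHT1, whose products remake methionine from homocysteine with S-adenosylmethionine or S-methylmethionine as donor, fell by 0.72 ± 0.08 and 0.40 ± 0.09. MHT1 was at -0.23 with cyclic loess normalization and still called (limma adjusted p = 0.0345). ADO1, the adenosine kinase gene that removes the other product of Sah1, was the member not called. Its signals were 4.57, 4.81 and 4.72 in BH13 and 4.63, 4.38 and 4.68 in REF, which overlap, and the interval of the difference was -0.11 to 0.38.

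The regulators were split, with 2 of 6 higher, 3 lower and 1 not called. At 83.3%, their share of calls was near the 81.3% of all genes tested. The shares higher and lower were 33.3% and 50%, beside 38% and 43.3% of all genes. MET28, which encodes a bZIP cofactor that stabilises the Met4 complexes on DNA, had signals of 0.30, 0.21 and 0.21 in BH13 and -1.79, -1.80 and -1.57 in REF. It was 3.89-fold higher in BH13 (limma adjusted p = 2.35e-07), and only JLP1 among the 38 genes rose more. With normexp background correction that order was reversed, at 1.92 for MET28 and 1.80 for JLP1. MET32, for a zinc finger protein that brings Met4 to DNA, had -2.24, -2.49 and -2.25 in BH13 and -3.68, -3.38 and -3.26 in REF, and rose by 1.11 ± 0.12. MET31, the gene of the related factor, had -2.01, -2.40 and -2.33 in BH13 and -1.80, -1.84 and -1.85 in REF. MET31 fell by 0.42 ± 0.11, with a gap between the strains of under 0.2 at the closest pair of arrays, and was at -0.28 with cyclic loess normalization.

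MET4, the gene of the activator itself, had signals of -1.70, -1.93 and -1.79 in BH13 and -1.17, -1.5 and -1.34 in REF. It fell by 0.47 ± 0.10 (limma adjusted p = 0.00297). MET30, the F-box gene of the ligase that restrains Met4, fell by 0.71 ± 0.08, from REF values of 0.04 to 0.15 to BH13 values of -0.68 to -0.52. CBF1, which encodes the factor that binds with Met28 and Met4, was not called, at 0.16 with an interval of -0.02 to 0.35, although its 3 BH13 values lay just above its REF values.

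**Figure D3:**
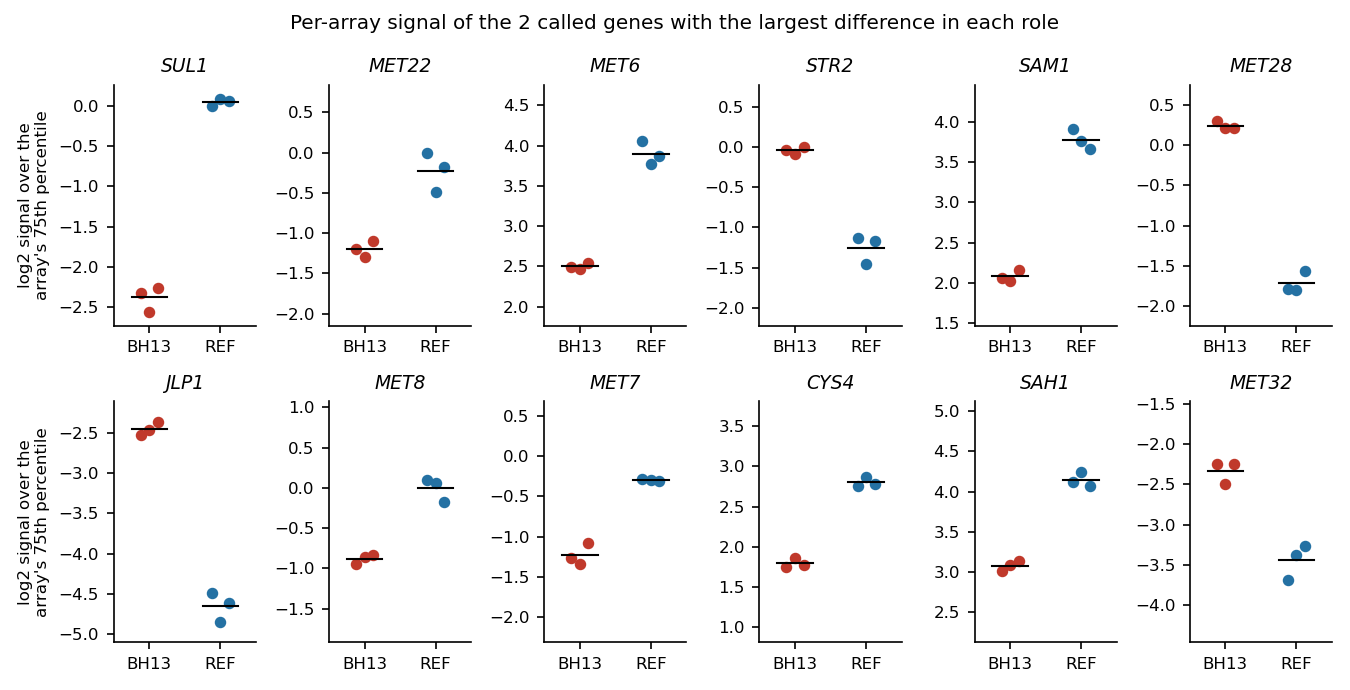
Log2 signal over the array's 75th percentile on each of the 6 arrays for the 2 called genes with the largest difference in each role. Points are arrays, lines are strain means, every panel spans the same 3 log2 units, and the strains do not overlap in any of the 12 panels.

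Several roles are filled by related genes or by successive enzymes, and 10 such pairs, chosen after the values were seen, were compared. The measure was their log2 ratio within each array, a quantity that no scaling of whole arrays can move. Background correction and cyclic loess normalization can still move it, and the ratios were not recomputed with either. They are given as a description because the pairs were picked with values known. An exact permutation test of 3 arrays against 3 also cannot go below p = 0.1. SUL1 over SUL2 was between -2.48 and -2.23 in BH13 and between -0.07 and 0.01 in REF, a 5.10-fold shift of the ratio. MET31 over MET32 was at 0.08 ± 0.15 (SD, n = 3) in BH13 and 1.61 ± 0.25 in REF, so the ratio of these factor genes moved 2.89-fold. SAM1 over SAM2 moved by -0.75, from -0.12 ± 0.13 in REF to -0.87 ± 0.02 in BH13. CYS3 over CYS4 moved by 1.41, STR2 over STR3 by 0.85, MET12 over MET13 by -0.57 and SAM4 over MHT1 by -0.32.

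Permease genes outside the list of 38 were set against related members in the same way. SAM3, the S-adenosylmethionine permease gene, had signals of -4.45, -4.62 and -4.54 in BH13 and 0.51, 0.78 and 0.56 in REF. Its ratio to MMP1, a related permease gene, moved by -4.57, or 23.7-fold. Whether the probes of SAM3 and MMP1, or those of SAM4 and MHT1, read each other's transcripts was not tested, which leaves the size of the fall of MMP1 and of both ratios uncertain. The high-affinity methionine permease gene MUP1 had -0.56, -0.53 and -0.53 in BH13 and 1.14, 1.43 and 0.92 in REF, and its ratio to MUP3 moved by -1.58. The serine hydroxymethyltransferase genes SHM1 and SHM2, both lower in BH13, were the pair whose ratios overlapped, at -2.75 ± 0.10 in BH13 and -2.93 ± 0.09 in REF.

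**Figure D4:**
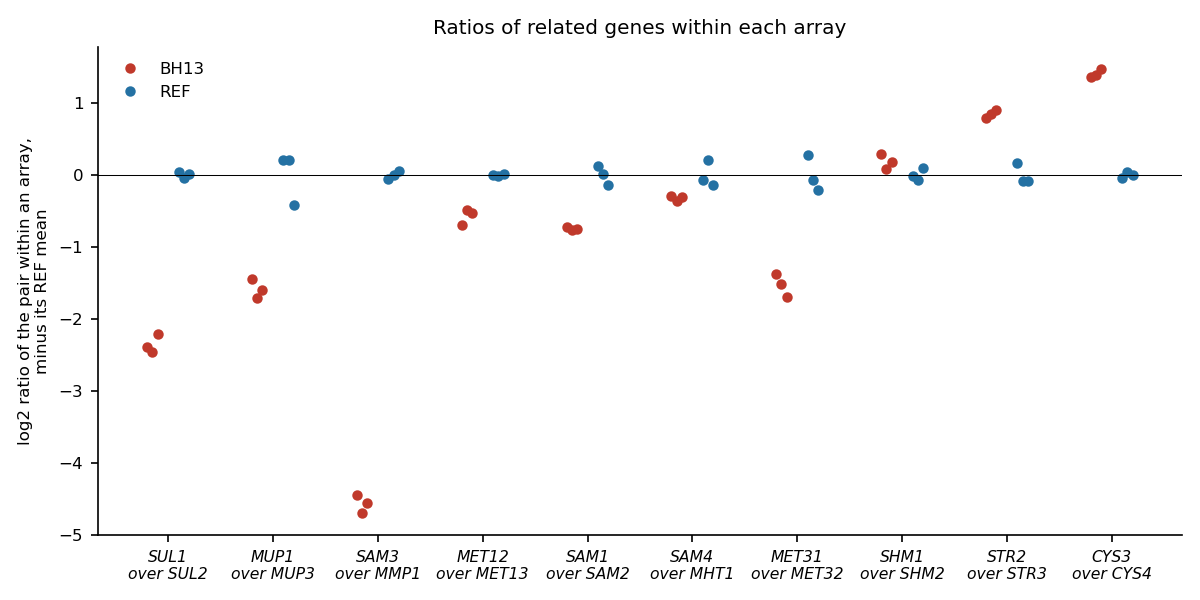
Log2 ratio of 10 gene pairs within each array, minus the pair's REF mean, so that REF points scatter around 0. The BH13 points lie apart from the REF points for every pair but SHM1 over SHM2, and the ratio of SAM3 over MMP1 shifted the most, by -4.57.

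Of 51 other genes around the pathway, 17 were higher, 26 lower and 8 not called, so that 84.3% were called beside 81.3% of all genes tested. In the list of other sulfur uptake and export genes, which also holds a sulfatase and a regulator gene, 7 of 13 were higher and 6 lower. The shares of all genes tested were 38% higher and 43.3% lower. AGP1, a broad amino acid permease gene, had -1.42, -1.18 and -1.16 in REF and 1.71, 1.74 and 1.72 in BH13, and was 7.86-fold higher. YCT1, the cysteine transporter gene, rose by 1.78 ± 0.12, and MUP1 fell by 1.70 ± 0.12. The sulfonate and sulfate transporter gene SOA1 rose by 1.59 ± 0.13. BDS1, which encodes a sulfatase that frees sulfate from alkyl and aryl sulfates, rose by 1.52 ± 0.12. After normexp background correction SOA1 was at 1.14 and BDS1 at 1.39. OPT1, a glutathione and peptide transporter gene, fell by 0.88 ± 0.13, and normexp background correction left a difference of -0.49. MUP1, OPT1, SOA1 and BDS1 were named after their values were seen. SEO1, a permease-like gene counted as lower, was above background on none of the BH13 arrays, was at least 1.36-fold lower, and lost its call with normexp background correction, at -0.14 (limma adjusted p = 0.481).

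Most genes listed for folate synthesis and one-carbon metabolism fell, with 7 of 8 called lower and a median of -1.27. Among all genes tested 43.3% were called lower, and their median was -0.07. SHM2, the cytosolic serine hydroxymethyltransferase, had 2.21, 2.17 and 2.36 in BH13 and 4.38, 4.25 and 4.41 in REF, and was 4.29-fold lower. MTD1, a methylenetetrahydrofolate dehydrogenase gene, fell by 1.98 ± 0.10 and SHM1, the mitochondrial enzyme, by 1.91 ± 0.11. The exception was the folate synthesis gene FOL3, at 0.24 and not called (limma adjusted p = 0.0566), and called higher under 7 alternatives, including that without REF replicate 3. MET13, whose product is the source of the methyl group for Met6, was higher as given above.

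Methionine salvage genes, which recycle the methylthio group left from polyamine synthesis, were called higher in 5 of 9 cases and lower in 3, beside 38% and 43.3% of all genes tested. MEU1 and MRI1, the first enzymes of the route, fell by 1.06 ± 0.10 and 0.91 ± 0.11, and MDE1, UTR4 and ADI1, which act after them, rose by 0.40, 0.62 and 0.55. The aminotransferase genes of the last step differed, with ARO8 lower by 0.82 ± 0.07 on the log2 scale, BAT2 higher by 0.75 ± 0.07 and BAT1 not called, at -0.12. ARO9, another of them, rose 8.01-fold, from -5.88, -6.08 and -5.52 in REF to -2.87, -2.88 and -2.72 in BH13, or by 2.12 on the log2 scale after normexp background correction. Among users of S-adenosylmethionine 5 of 7 were lower and 1 higher, beside 43.3% and 38% of all genes tested. CHO2, for a methyltransferase of phospholipid synthesis, was among the 5 at -0.26 (limma adjusted p = 0.0386), and its call was lost under 7 alternatives, with -0.14 after cyclic loess normalization, and also without BH13 replicate 1 or 2 and without REF replicate 1 or 3. STE14, which methylates the a-factor pheromone and other proteins, fell by 1.33 ± 0.14, DPH5, for diphthamide synthesis, by 1.07 ± 0.14, and the sterol methyltransferase gene ERG6 by 0.96 ± 0.07.

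For glutathione and cysteine use, 1 of 8 genes was higher, 3 were lower and 4 were not called. Among all genes tested 81.3% were called, 38% higher and 43.3% lower. Apart from GTO1 and IRC7 the split of the 8 genes depended on the processing. With normexp background correction and with cyclic loess normalization 3 were higher and 1 lower, as ECM38 and DUG1 were then called higher and DUG2 and DUG3 were not called. With quantile normalization 2 were higher and 1 lower, and with median centring 2 were higher and 2 lower, since ECM38 was called in both, DUG2 in neither and DUG3 only after median centring. The glutathione synthesis genes GSH1, at -0.06 with an interval of -0.23 to 0.11, and GSH2, at 0.14 with an interval of -0.10 to 0.37, were not called. IRC7, a gene for a beta-lyase that cleaves cysteine conjugates, had -2.63, -2.51 and -2.52 in BH13 and -0.04, -0.20 and -0.18 in REF, and was 5.32-fold lower. GTO1, a glutathione transferase gene, rose by 2.23 ± 0.13, or by 1.65 after normexp background correction. DUG2 and DUG3, of a glutathione-degrading complex, were called lower at -0.23 and -0.25 (limma adjusted p = 0.0293 and 0.0135). Of 16 alternatives DUG2 lost its call under 8, including those without any one BH13 array or without REF replicate 2, and DUG3 lost its call under 5, including those without BH13 replicate 1 or 3. THR1 and THR4, which lead homoserine to threonine, fell by 0.78 ± 0.12 and 0.49 ± 0.08. Of 4 partners of Met30 in its ubiquitin ligase, SKP1 rose by 1.71 ± 0.10, CDC53 by 0.83 ± 0.07 and CDC34 by 0.53 ± 0.07, and HRT1 was not called, so that 3 of the 4 were higher, beside 38% of all genes tested, while MET30 was lower.

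**Figure D5:**
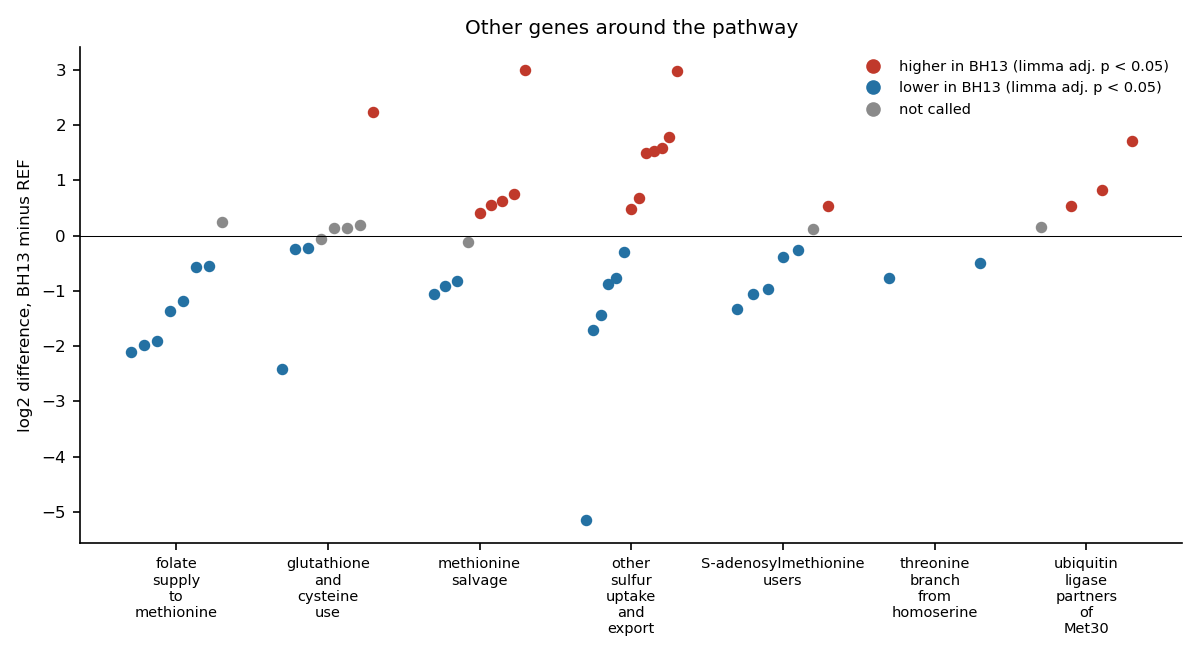
Log2 difference, BH13 minus REF, of 51 other genes in 7 lists, 1 point per gene, coloured by call. The list of other sulfur uptake and export genes runs from SAM3 at -5.15 to AGP1 at 2.97, and 7 of the 8 folate genes lie below 0.

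The strains also differed in mating-type genes, with a-cell and haploid markers lower in BH13. All 7 a-cell markers were lower in BH13, where 2 of them were above background on no array. Their levels were summed on the linear scale, where the brightest genes weigh most. The log2 of that sum was -1.86 to -1.81 in BH13 and 2.91 to 2.97 in REF. Of 10 haploid markers, 9 were lower and 1 higher, and the same measure was -0.03 to 0.05 in BH13 and 3.02 to 3.06 in REF. Of 5 alpha-cell markers, 4 were tested, with 2 higher and 1 lower. The same measure over all 5 overlapped, at -2.66 to -2.37 in BH13 and -2.52 to -2.23 in REF. Among all genes tested, 38% were called higher and 43.3% lower. The part of cell type in the sulfur gene differences was not tested.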

How the data were processed

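Total RNA of 6 samples, 3 of BH13 and 3 of REF, was compared, with groups and replicate numbers from the sample labels. The labels do not say whether the replicates are separate cultures, so the spread behind each p-value may in part be technical. Spot intensity after background subtraction was read from the deposited scanner files. Feature Extraction 10.7.3.1 made them, per the file headers, and the version in the submitters' processing notes is 9.1. The deposited table of the authors' own values holds log2 values for 1325 probes, centred per probe, including 5 of the 38 genes; how these were filtered or normalized is not stated in the labels.

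The 12512 gene spots of an array belong to 6256 probes, 2 per probe and 1 probe per gene. Outlier and control spots were left out, log2 spot values averaged and each array's 75th percentile (2301 to 4905 intensity units) subtracted. The 5890 probes well above background, by at least 1 spot, on at least 3 arrays were tested two-sided with limma 3.58.1 (lmFit, eBayes; R 4.3.3) and a Benjamini-Hochberg threshold of 0.05. Names came from the RefSeq gene table of assembly R64, which matched 5756 probes and all 38 members. Promoter and protein sequences were not analysed here. Figures used matplotlib 3.10.9 under Python 3.11.15.

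The members, their roles and the other lists were chosen with earlier results of these data known. The text names all members, and per other list up to 3 called genes with the largest differences; other genes outside the members, and the gene pairs, were chosen after their values were seen. Alternatives were normexp background correction (offset 50), median centring, quantile and cyclic loess normalization, both filters on dim probes, outlier spots kept, a variance trend, replicate and slide blocks, each array left out and the authors' table. The number of arrays limits the precision.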

Additional observations from a re-analysis of the deposited data

How the results depend on the processing

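The 25 calls among the 38 genes kept their sign and stayed called under all 16 alternatives fitted to the scanner values, and the 5 of these genes in the authors' deposited table, SUL1, JLP1, STR2, SAM1 and MET28, were called with the same sign there. That table comes from the same 6 arrays, holds 1325 of the 6256 probes, and is not separate support. It also holds too few of the 38 genes for counts. Of the 13 genes not called, 6 gained a call somewhere. With cyclic loess MET12, ADO1, CBF1 and MET10 were called higher, so that 1 methyl cycle gene and 2 sulfate reduction genes were higher; CBF1 was also called with quantile normalization and without REF replicate 1. HOM3 was called lower with quantile normalization, and MET1 with normexp background correction, with the replicate block and without REF replicate 2. With the replicate number as a block 2269 genes were higher and 2576 lower, beside 2240 and 2549, and 9 and 17 of the 38, with no call among the 38 changed other than that of MET1. Deviations of same-numbered arrays correlated at 0.13, 0.24 and 0.0027, and those of unlike-numbered arrays at -0.21 to 0.09. The numbers were not taken to pair the samples in the main fit, and the replicate block stands as the alternative. The slide as a random block gave 2199 and 2511 genes, but since no slide held both strains it does not test a slide effect. Leaving out each array gave 9 to 10 of the 38 higher and 16 to 17 lower. The median difference of all genes was -0.08 to 0.01 over the scalings. JLP1 was at 1.80 with normexp background correction, and the cause was not tested.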

Other observations

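Of the 38 genes, JLP1, MMP1 and MHT1 lie close together on chromosome XII, and MHT1 and MMP1 are next to each other, the only neighbours among the 38 in the RefSeq gene order of protein-coding genes. The stretch runs MHT1, MMP1, GTT2, HSU1, JLP1 and was picked after the values were seen. MHT1 and MMP1, a methyltransferase and a permease for S-methylmethionine, were lower in BH13, at -0.40 ± 0.09 and -0.58 ± 0.09. The next 3 genes were higher, with the glutathione transferase gene GTT2 at 0.43 ± 0.08, HSU1 at 0.92 ± 0.08 and JLP1 at 2.20 ± 0.10. HSU1 had log2 signals of -0.69, -0.67 and -0.63 in BH13 and -1.49, -1.65 and -1.61 in REF, without overlap. The sign of the difference thus changes once along these 5 genes.

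Arrays within a strain varied in sulfate reduction genes, with a median SD of 0.10 in BH13 and 0.14 in REF. The median SDs of all genes tested were 0.09 and 0.11. In BH13, replicate 2 gave the lowest value for 4 of the 6 regulators and for 5 of the 8 sulfate reduction genes. In REF, replicate 2 did so for 5 of these 8 as well. The gap was widest for MET14, where replicate 2 of BH13 was at 3.14 beside 3.66 and 3.59, and MET14 had the largest SD over the BH13 arrays of the 38 genes, 0.28.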
